A study of Oryzias melastigma with 6 samples.

Results

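Female liver was compared with male liver of sexually mature, breeding marine medaka (Oryzias melastigma), a small saltwater fish used in marine toxicology. Each sex was represented by 1 library from pooled liver tissue, so 2 of the 6 libraries of the series were used, and the brain, ovary and testis libraries served only to set liver values beside other organs. The labels give no strain, genotype, age, treatment or number of pooled fish for either group. The values describe 2 pools, the spread between fish of 1 sex cannot be seen, and no test between the sexes and no p-value is given. After Illumina adapter sequences had been left out, 381 of the 1495 sequences in the 6 files were listed in either liver, 307 in the female and 351 in the male, and 277 of them in both. Of these 381, 272 were assigned to 66 arms of conserved microRNA (miRNA) families, 40 to tRNA, 17 to rRNA and 2 to snRNA, and 50 stayed unassigned.

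A miRNA is a short RNA, cut from 1 arm (5p or 3p) of a hairpin precursor, that guides Argonaute proteins to messenger RNAs and lowers their translation or stability. Pairing runs mainly through its seed, bases 2 to 8 from the 5′ end, so that miRNAs with the same seed share most of their targets. Fish liver is among the organs that differ most between the sexes, because oestrogen makes the female liver produce the yolk precursor vitellogenin and egg envelope proteins. It also holds endothelium, blood cells, bile duct epithelium and mesenchymal cells, and a pool of whole liver mixes their miRNAs. In such bulk samples fewer cells of a type and less miRNA per cell cannot be told apart.

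The sequences below carry the comparison and are written 5′ to 3′ as deposited, in DNA letters, with the seed in capitals. The first set gives, for each of the families that were at least 2-fold higher in male liver, the sequence with the highest value summed over both livers, to show that these 13 differ in seed. For miR-130-3p this sequence begins 1 base inside the usual start, and in male liver the usual start, cAGTGCAAttttaaaagggcatt, was slightly higher, at 83.5 RPM beside 81.9 RPM.
miR-221-3p: aGCTACATtgtctgctgggttt
miR-142-3p: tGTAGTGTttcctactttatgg
miR-99-5p/miR-100-5p: aACCCGTAgatccgaacttg
miR-146-5p: tGAGAACTgaattccatagatgg
miR-139-5p: tCTACAGTgcatgtgtctccagt
miR-216-5p: tAATCTCTgcaggcaactgtg
miR-24-3p: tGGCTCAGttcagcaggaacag
miR-103-3p/miR-107-3p: aGCAGCATtgtacagggctatct
miR-130-3p: aGTGCAATtttaaaagggcatt
miR-22-3p: aAGCTGCCagctgaagaactgt
miR-29-3p: tAGCACCAtttgaaatcggtgtt
miR-199-3p: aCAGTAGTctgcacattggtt
miR-200-3p: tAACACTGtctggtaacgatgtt

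The second set gives the families that leaned most to female liver. Here the leading miR-20 sequence and miR-93-5p share the seed AAAGTGC, and the miR-101-3p reads came with 2 starts, which shifts the seed by 1 base.
miR-20-5p: tAAAGTGCttatagtgcaggtag
miR-93-5p: aAAAGTGCtgtttgtgcaggt
miR-19b-3p: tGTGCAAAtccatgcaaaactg
miR-19a-3p: tGTGCAAAtctatgcaaaactg
miR-101-3p, longer at the 5′ end: gTACAGTActatgataactga
miR-101-3p: tACAGTACtatgataactgaag
miR-148-5p: aAGTTCTGtgatacactcagact
miR-33-5p: gTGCATTGtagttgcattgca

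Both files listed exact sequences of 20 to 23 nt with a value in RPM, reads scaled to a fixed library total, and nothing under 6.032 RPM in female or 6.002 RPM in male liver, which are 114 and 112 reads. The values implied totals of 18898991 reads for female and 18660890 reads for male liver, and the listed sequences made up 2.51% and 2.49% of these. miRNA families held 18358 RPM in female and 19928 RPM in male liver. For an unlisted sequence the files give no value other than this upper limit. Intervals are exact 95% binomial intervals that cover counting error only, since reads amplified by PCR without molecular identifiers are not independent molecules. They are narrow at this depth and leave out the variation between fish and between libraries.

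The label liver held in both libraries. Highest in each was miR-194-5p, known from hepatocytes and intestine, with 7055 RPM in female and 6962 RPM in male liver, 38.4% and 34.9% of the miRNA value. The name rests on the loosest match allowed, since the main sequence has 2 mismatches to the reference, and with at most 1 mismatch only a minor variant of 306 and 234 RPM is left. The hepatocyte miRNA miR-122-5p had 1823 RPM in female and 2011 RPM in male liver, and its other arm, miR-122-3p, had 115 and 148 RPM. miR-192-5p/miR-215-5p, from the same hairpin clusters as miR-194, had 79.3 RPM in female and 92.01 RPM in male liver. In brain only miR-194-5p of these 4 arms was listed, with 8.61 RPM in the female library. Of the 9 neuronal arms 7 were unlisted in both livers, among them miR-9-3p with 32512 RPM in female and 35282 RPM in male brain. The other two, miR-128-3p and miR-7-5p, summed to 12.5 RPM in female and 17.4 RPM in male liver. All 3 gonad arms (miR-202-5p, miR-202-3p and miR-430-3p) and all 3 muscle arms (miR-1-3p, miR-133-3p and miR-206-3p) were unlisted in both.

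The livers shared the bulk of their profile and parted mainly through families that stood higher in the male. The 10 most abundant families held 85.7% of the miRNA value in female and 80.8% in male liver, and 8 of them were the same. Over the 55 families listed in both, the log2 values correlated with Pearson's r of 0.921, a description across families and not across fish. Families were compared where 1 of the livers reached 50 RPM, which left 39. Of these, 13 were at least 2-fold higher in male liver (33.3%) and 0 at least 2-fold higher in female liver (0%). At 1.5-fold these counts were 17 and 6. A family sum takes a sequence unlisted in 1 liver as 0 there, which lowers the sum in that liver. Over sequences listed in both livers, 10 of 38 families were at least 2-fold higher in male liver and 0 in female liver. miR-22-3p, miR-199-3p and miR-200-3p then had ratios of 0.528, 0.506 and 0.525, short of 2-fold. Over all 39 families the median ratio of female to male was 0.776, a log2 difference of -0.37, so a typical family leaned to the male. With values rescaled so that this median is 1, the split was 9 families at least 2-fold higher in male and 6 in female liver, with values scaled to the miRNA total it was 10 and 2, and each direction below is to be read against the median as well.

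**Figure D1:**
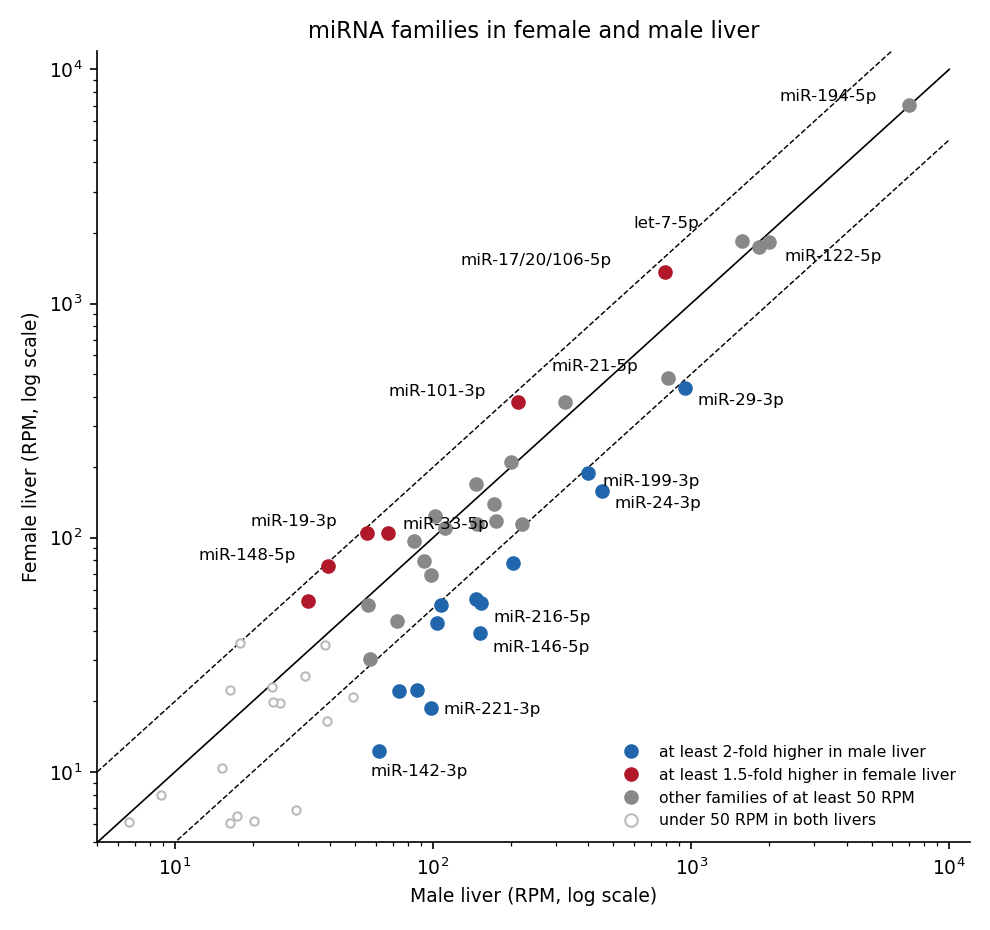
RPM of each miRNA family in male liver (horizontal, log scale) and female liver (vertical, log scale), 1 pooled library each, for the 55 families listed in both. The solid line marks equal values and the dashed lines 2-fold; the 13 blue families lie under the lower dashed line, and no filled point lies above the upper one.

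Of the 14 arms listed for hepatocytes and gut, 12 reached 50 RPM, 5 of them higher in female and 7 in male liver, beside 13 and 26 of all 39 families. The median ratio of these 12 arms was 0.943 against 0.776 over all 39 families. At 1.5-fold, 3 were higher in female liver (miR-148-5p, miR-101-3p and miR-33-5p, described with the female-leaning families) and 3 in male liver (miR-103-3p/miR-107-3p, miR-22-3p and miR-21-5p), and the other 6 lay closer. Among those 6, miR-194-5p had a female-to-male ratio of 1.01 (1.01 to 1.02), miR-122-5p of 0.906 (0.893 to 0.920), miR-192-5p/miR-215-5p of 0.861 (0.803 to 0.924) and miR-30-5p of 0.982 (0.924 to 1.04). With median scaling the same 4 ratios were 1.31, 1.17, 1.11 and 1.27, so that the direction of the last 3 depended on the scaling. The miR-30-5p value in RPM sums variants on opposite sides of 1, described below. The fish miRNA miR-722-3p, with 97.1 RPM in female and 84.3 RPM in male liver, had a ratio of 1.15 (1.08 to 1.23). miR-122-3p, counted at 0.776 among the 7 arms higher in male liver, had only 3 of its 7 male sequences listed in the female. Over sequences listed in both livers its ratio was 1.02, on the other side of 1. The median of 0.776 over all 39 families is the ratio of this arm. The 2 arms of this list at least 2-fold higher in male liver were miR-22-3p and miR-103-3p/miR-107-3p. miR-103-3p/miR-107-3p, which in mouse liver lowers insulin sensitivity, had 54.8 RPM in female and 147 RPM in male liver, 2.69-fold higher (2.50 to 2.89). miR-22-3p, a miRNA made by most tissues, had 43.1 RPM in female and 103 RPM in male liver, 2.39-fold higher (2.203 to 2.60). Only 1 of its 3 male sequences was listed in the female, and that sequence alone had a female-to-male ratio of 0.528.

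The 2 widest gaps were those of miR-221-3p and miR-142-3p. miR-221-3p, abundant in endothelium and known in mammals for lowering the cell cycle inhibitor p27, had 18.7 RPM in female and 98.2 RPM in male liver. That made it 5.24-fold higher in the male (4.675 to 5.89). Its seed mate miR-222-3p was unlisted in female liver and had 17.8 RPM in male liver, in 2 sequences of which the larger was at least 1.48-fold above the female minimum. miR-142-3p, made by blood cell lineages, had 12.3 RPM in female and 61.7 RPM in male liver, 5.02-fold higher (4.36 to 5.81). miR-146-5p, a brake on innate immune signalling in mammals, had 39.3 RPM in female and 152 RPM in male liver, 3.86-fold higher (3.56 to 4.19). Both leukocyte arms that reached 50 RPM thus stood higher in the male, with a median 4.40-fold, a female-to-male ratio of 0.227. Over all 39 families, 26 stood higher in the male, 13 of them at least 2-fold, and the median ratio was 0.776. The third listed leukocyte arm, miR-223-3p of granulocytes, had 6.64 RPM in male liver alone. The arms miR-142-5p, miR-150-5p and miR-155-5p were unlisted in both. Summed over the 6 leukocyte arms the value was 51.5 RPM in female and 220 RPM in male liver.

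Other markers of blood and vessels differed in direction. The 4 red cell arms summed to 316 RPM in female and 319 RPM in male liver, with miR-486-5p unlisted in both. Of these, miR-144-3p had 170 RPM in female and 147 RPM in male liver, miR-451-5p 139 and 172 RPM, and miR-144-5p 7.25 RPM in the female alone. miR-126-3p, the defining miRNA of endothelium, leaned the other way from miR-221-3p, with 123 RPM in female and 102 RPM in male liver, a ratio of 1.21 (1.14 to 1.29). Its other arm, miR-126-5p, had 10.4 RPM in female and 15.3 RPM in male liver. The smooth muscle miRNAs miR-143-3p, with 44.1 RPM in female and 72.4 RPM in male liver, and miR-145-5p, with 19.99 RPM in the male alone, stood on the side of miR-221-3p. Over the 6 arms of endothelium and vascular smooth muscle, all listed, the sum was 196 RPM in female and 325 RPM in male liver. The share of blood and vessel cells in each pool was not measured, and its part in these differences was not tested.

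Mesenchymal and epithelial families were higher in male liver to a smaller degree, as were 26 of all 39 families, 13 of them at least 2-fold. miR-199-3p, from a hairpin of mesenchymal cells, had 189 RPM in female and 399 RPM in male liver, 2.11-fold higher (2.03 to 2.197). Its 5p arm went with it, at 30.4 RPM in female and 57.0 RPM in male liver, 1.88-fold (1.69 to 2.08). Only 2 of the 3 male sequences of miR-199-5p were listed in the female. Over sequences listed in both livers the female-to-male ratio of this arm was 0.680, a smaller difference that the interval does not cover. miR-21-5p, high in growing and fibrotic tissue, had 483 RPM in female and 814 RPM in male liver, 1.69-fold (1.64 to 1.73). It stands in both the hepatocyte and the mesenchyme list. The 4 mesenchymal arms summed to 702 RPM in female and 1269 RPM in male liver, with miR-214-3p unlisted in both. miR-200-3p, which holds epithelial cells in their state by repressing ZEB factors, had 51.7 RPM in female and 108 RPM in male liver, 2.08-fold higher (1.93 to 2.25). Of the other 5 epithelial arms, miR-205-5p had 6.03 RPM in female and 16.4 RPM in male liver, miR-429-3p had 6.70 RPM in the male alone, and miR-141-3p, miR-203-3p and miR-31-5p were unlisted. The epithelial sum was 57.7 RPM in female and 131 RPM in male liver. With median scaling miR-199-3p and miR-200-3p, at ratios of 0.611 and 0.619, no longer reached 2-fold. Over sequences listed in both livers they also fell short, at 0.506 and 0.525.

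miR-216-5p, known as a miRNA of exocrine pancreas, had 52.7 RPM in female and 154 RPM in male liver, 2.92-fold higher (2.71 to 3.14). Both of its sequence variants showed this, at ratios of 0.347 and 0.321. The other two pancreas arms, miR-217-5p, which is cut from the same cluster, and miR-375-3p, were unlisted in both livers. miR-216-5p was far more abundant in brain, with 8696 RPM in the female and 9335 RPM in the male library.

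Among miRNAs of growth and stress the members were split. miR-24-3p had 158 RPM in female and 453 RPM in male liver, 2.87-fold higher (2.75 to 2.99). Its cluster partners differed less, miR-23-3p with 118 and 176 RPM, 1.49-fold (1.41 to 1.57), and miR-27-3p with 69.6 and 98.4 RPM, 1.41-fold (1.32 to 1.52). The intervals of miR-24-3p and its partners did not overlap, although the 3 are cut from shared transcripts in vertebrates. miR-29-3p, which represses collagens in mammals, had 436 RPM in female and 946 RPM in male liver, 2.17-fold higher (2.11 to 2.23). miR-181-5p came just under the threshold with 114 and 221 RPM, 1.93-fold (1.83 to 2.04). miR-26-5p, at 1744 RPM in female and 1831 RPM in male liver, miR-16-5p, at 210 and 200.3 RPM, and miR-15-5p, at 381 and 324 RPM, had ratios of 0.952, 1.049 and 1.18. Of the 13 arms in this list 8 reached 50 RPM, of which 2 were higher in female and 6 in male liver, with a median ratio of 0.689. Over all 39 families 13 were higher in female and 26 in male liver, with a median ratio of 0.776.

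Below 50 RPM the list held miR-210-3p, a miRNA of hypoxia, with 6.19 RPM in female and 20.3 RPM in male liver, and miR-10-5p with 6.08 and 6.64 RPM. The male value of miR-210-3p includes 2 sequences just over the listing minimum that the female file does not list, and the sequence in both files had 6.19 and 7.07 RPM, a ratio of 0.875. The fish pair miR-462-5p and miR-731-5p, cut from 1 cluster and induced by interferon in other teleosts, was listed in male liver alone. miR-462-5p had 20.3 RPM there, at least 3.37-fold above the female minimum, and miR-731-5p had 15.8 RPM, at least 2.62-fold above it. miR-34-5p was unlisted in both. In all, 9 families were listed in the male alone and 2 in the female alone. Of the 27 families under 50 RPM in both livers, 11 had a sum at least 2-fold higher in male and 0 in female liver. Of these 11, 6 were listed in both livers and 3 had a male sequence at least 2-fold above the female minimum. In the other 2, miR-222-3p and miR-499-5p, 2 male sequences were summed against 1 female minimum, and a 2-fold difference is not shown. Nor is it shown for miR-210-3p, miR-128-3p and miR-338-3p of the 6, whose male sums include sequences unlisted in the female. The sequence that each has in both livers had a ratio of 0.875, 0.574 and 0.508.

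As a sum over its variants, the let-7 family went apart from the families it is co-transcribed with. miR-99-5p/miR-100-5p had 22.4 RPM in female and 86.9 RPM in male liver, 3.88-fold higher (3.49 to 4.33), and miR-125-5p had 6.88 and 29.5 RPM, 4.29-fold (3.54 to 5.24). Over sequences listed in both livers their female-to-male ratios were 0.354 and 0.302, against 0.258 and 0.233 over all sequences. let-7-5p, the family of the third member of these clusters, had 1856 RPM in female and 1571 RPM in male liver. Its ratio of 1.18 (1.16 to 1.2003) lay in the other direction. This is a sum over variants, and those cut from these clusters were not told apart from the rest. The most abundant variant, let-7a, had a ratio of 0.867 (0.843 to 0.890), on the male side. let-7-3p was unlisted in both. The arm opposite miR-100-5p, with 51.6 RPM in female and 56.2 RPM in male liver, was level between the sexes at 0.919 (0.841 to 1.003). The 5p arm made up 30.3% of this hairpin's value in female and 60.7% in male liver. The male share includes a sequence of 23.6 RPM that was unlisted in the female. Of the 9 hairpins with both arms listed, which were looked at after their values were seen, 7 had both arms on the same side of 1 and 2, miR-126 and miR-19, had arms on opposite sides. miR-30 and miR-99/miR-100 are among the 7 with an arm whose interval includes 1, and miR-144-5p was listed in the female alone.

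miR-139-5p, on none of the lists, had 22.1 RPM in female and 73.6 RPM in male liver, 3.33-fold higher (2.98 to 3.72). miR-130-3p, studied in mammalian vessels and adipose tissue, had 78.3 RPM in female and 203 RPM in male liver, 2.60-fold higher (2.45 to 2.76). Only 2 of its 6 male sequences were listed in the female, and over these the female-to-male ratio was 0.473. These 2 families complete the 13. All 13 were listed in brain as well, where miR-139-5p reached 5095 RPM in the female and 4413 RPM in the male library.

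**Figure D2:**
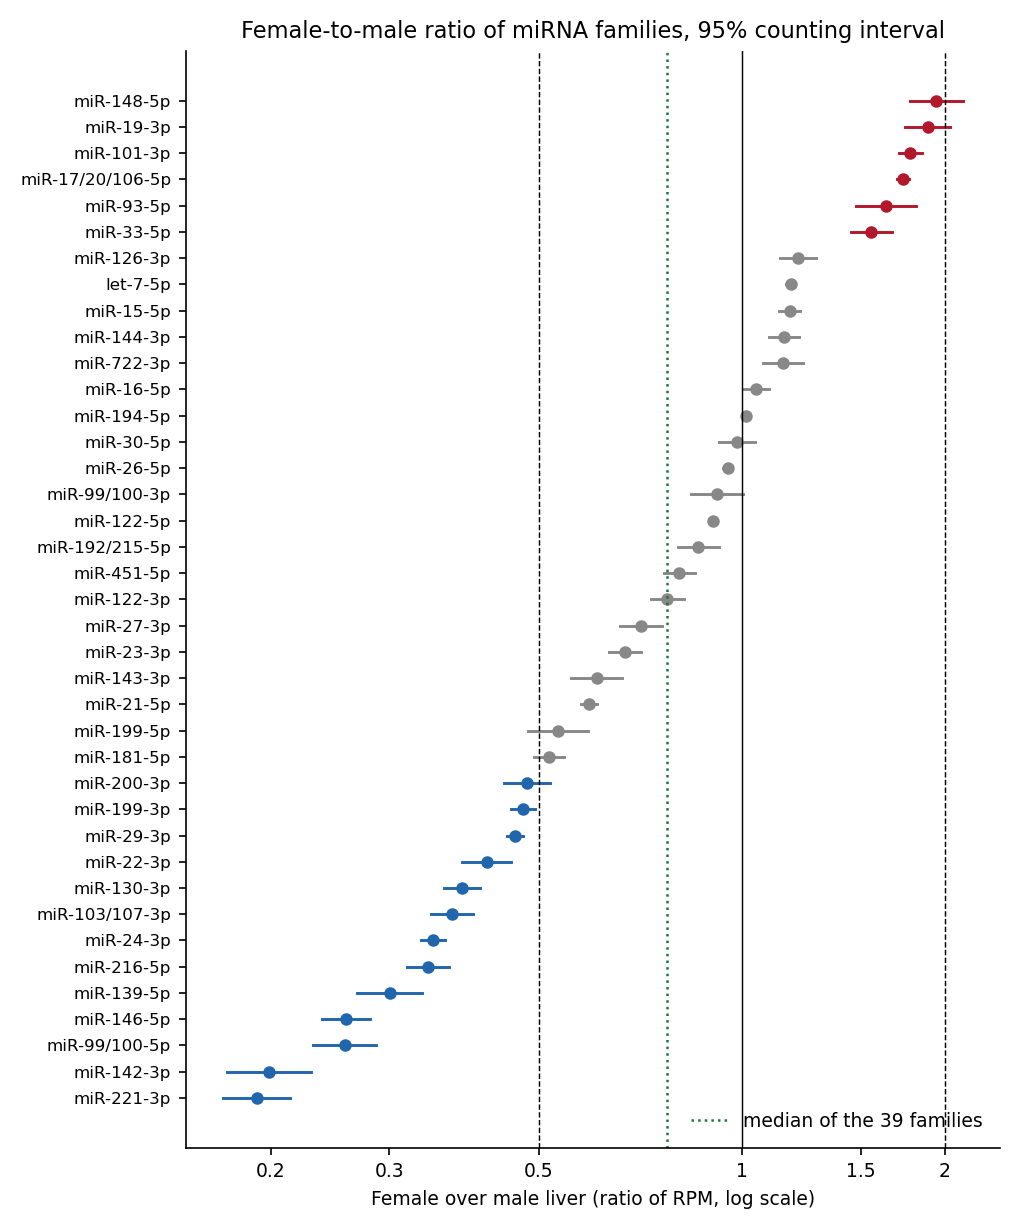
Female-to-male ratio of RPM in liver (horizontal, log scale) for the 39 families that reached 50 RPM in 1 or both livers, with exact 95% counting intervals as bars, 1 pooled library per sex. Dashed lines mark 2-fold and the dotted line the median, 0.776; ratios ran from 0.191 for miR-221-3p to 1.94 for miR-148-5p.

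Of the 13 families higher in female liver, 6 were at least 1.5-fold higher, and 3 of these belong to the miR-17 to 92 and related clusters. Read through the seed AAAGTGC, the merged family miR-17-5p/miR-20-5p/miR-106-5p had 1369 RPM in female and 789 RPM in male liver, a ratio of 1.74 (1.701 to 1.77). This was the fifth most abundant family of female liver. Its seed mate miR-93-5p had 53.8 RPM in female and 32.9 RPM in male liver, a ratio of 1.64 (1.48 to 1.81). miR-19-3p, cut from the same clusters, had 105 RPM in female and 55.7 RPM in male liver, a ratio of 1.89 (1.75 to 2.03). All 3 cluster families with 50 RPM were thus higher in the female, with a median ratio of 1.74 beside 0.776 over all families. The lower members did not share this: miR-92-3p had 22.96 and 23.7 RPM, miR-25-3p had 34.7 and 38.2 RPM, miR-18-5p had 6.27 RPM in the male alone, and miR-363-3p was unlisted.

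miR-101-3p, which represses the histone methyltransferase EZH2 in human cells, had 378 RPM in female and 213 RPM in male liver, a ratio of 1.78 (1.71 to 1.85). miR-148-5p had 75.9 RPM in female and 39.1 RPM in male liver, a ratio of 1.94 (1.775 to 2.13). Its partner miR-148-3p, which represses the DNA methyltransferase DNMT1 and the LDL receptor in mammals, had 35.4 and 17.8 RPM, a ratio of 1.98 (1.74 to 2.27). miR-33-5p, encoded in an intron of the sterol regulator gene SREBF2 and a repressor of cholesterol export in mammals, had 104 RPM in female and 67.1 RPM in male liver, a ratio of 1.56 (1.45 to 1.67). All 6 families with at least 50 RPM in this group stayed under 2-fold in RPM and reached it with median scaling, miR-148-5p at 2.50 and miR-33-5p at 2.01.

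Within families, sequence variants that share a seed could differ more than the family sum. Variants were set apart by bases 3 to 18 and kept with at least 20 RPM in either liver, which left 10 families with more than 1 variant. The 8 let-7 variants had the seed GAGGTAG in common and ran from a ratio of 0.690 to one of 2.31, with 5 higher in female liver, 2 higher in male liver and 1 level. The most abundant sequences of 4 of them show where they differ.
let-7a: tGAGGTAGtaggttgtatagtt
let-7b: tGAGGTAGtaggttgtgtggtt
let-7i: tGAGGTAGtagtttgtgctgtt
let-7 variant leaning most to the male: tGAGGTAGtagattgaatagtt
let-7a with its length forms had 523 RPM in female and 603 RPM in male liver, a ratio of 0.867 (0.843 to 0.890). let-7b had 371 and 262 RPM, a ratio of 1.41 (1.36 to 1.47). let-7i had 188 and 81.2 RPM, a ratio of 2.31 (2.17 to 2.45). The variant leaning most to the male had 39.3 and 56.9 RPM, a ratio of 0.690 (0.627 to 0.758). Under median scaling let-7a changed sides, since its ratio lies above the median of 0.776. Of the let-7 sequences 29 were listed in female and 25 in male liver, and 24 in both. A variant sum takes an unlisted sequence as 0, which the intervals do not cover.

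Variants of miR-30-5p and miR-15-5p also lay on opposite sides of 1. For miR-30-5p the ratios were 0.857 (0.786 to 0.934) and 1.31 (1.197 to 1.44). The second includes a form of 7.57 RPM unlisted in the male, and the first lies above the median of 0.776. For miR-15-5p they were 0.681 (0.585 to 0.792), 0.923 (0.845 to 1.01) and 1.28 (1.23 to 1.33). The variant at 0.681 had only 15.6 RPM in female and 22.8 RPM in male liver. miR-29-3p, miR-19-3p and miR-194-5p split in degree rather than in direction. Of miR-29-3p, the variant printed above had 313 RPM in female and 748 RPM in male liver, a ratio of 0.418 (0.405 to 0.431). The other variant, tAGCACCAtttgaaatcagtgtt, had 123 and 198 RPM, a ratio of 0.622 (0.590 to 0.655). miR-19a-3p had 41.2 RPM in female and 13.5 RPM in male liver, a ratio of 3.06 (2.65 to 3.54), and miR-19b-3p had 54.3 and 32.3 RPM, a ratio of 1.68 (1.52 to 1.86). Some forms of miR-19a-3p were listed in the female alone and count as 0 in the male, which raises its ratio and lies outside its interval. The size of the split between miR-19a-3p and miR-19b-3p rests in part on these forms. Over forms listed in both livers the ratio of the whole miR-19-3p family was 1.60. miR-194-5p came in a main variant and a minor one.
miR-194-5p, main variant: tGTAACAGcatctccatatgg
miR-194-5p, minor variant: tGTAACAGcaactccatgtgg
The main variant had 6749 RPM in female and 6728 RPM in male liver, a ratio of 1.00 (0.995 to 1.01), and the minor one had 306 and 234 RPM, a ratio of 1.31 (1.26 to 1.36). No family held a pair of sequences with at least 50 RPM that lay 1.5-fold or more from 1 in opposite directions.

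**Figure D3:**
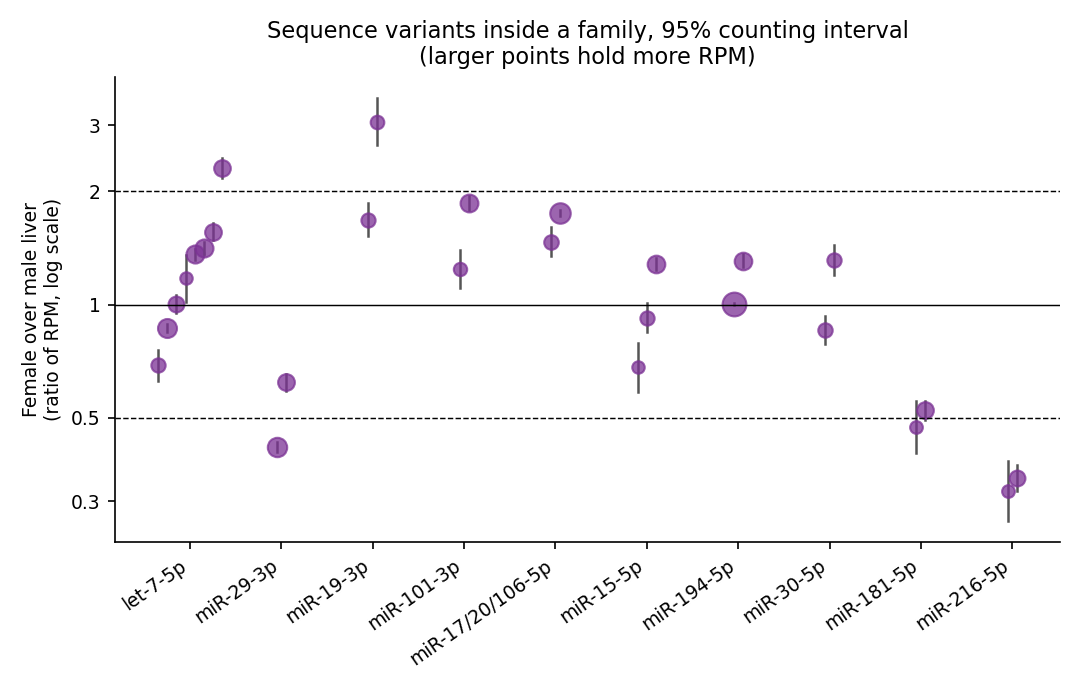
Female-to-male ratio of RPM in liver (vertical, log scale) for each sequence variant with at least 20 RPM in the 10 families with more than 1 such variant; bars are exact 95% counting intervals and point size follows RPM. The 8 let-7 variants spread from 0.690 to 2.31 while the variants of miR-181-5p and miR-216-5p stay together.

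Read lengths of the more abundant miRNAs were much the same in both livers. Among 10 families with at least 200 RPM in each liver and a common 5′ end, the mean length differed by less than 0.1 nt in 9, and the median difference, female minus male, was 0.018 nt. The exception was miR-16-5p, longer by 0.217 nt in female liver. Its 22-nt form held 43.1% of the family in female (41.6 to 44.7) and 32.0% in male liver (30.5 to 33.5), and its 20-nt form 20.9% (19.7 to 22.2) and 29.1% (27.6 to 30.6). The form of 23 nt was favoured in female liver for miR-17-5p/miR-20-5p/miR-106-5p, at 61.1% (60.5 to 61.7) against 53.9% (53.1 to 54.7). It was favoured in male liver for miR-29-3p, at 85.3% (84.5 to 86.1) in the female against 92.2% (91.7 to 92.6). let-7-5p was longer in the female by 0.072 nt and miR-21-5p by 0.035 nt, and miR-122-5p was shorter by 0.028 nt. miR-15-5p, picked after its values were seen, kept its mean within 0.026 nt while its 22-nt form held 39.3% in female and 54.6% in male liver, with both the 21-nt and the 23-nt form higher in the female.

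The last base of the longest reads showed how far single forms departed from their family. For miR-21-5p, 23-nt reads ending in C had 92.5 RPM in female and 167 RPM in male liver, a ratio of 0.554 (0.522 to 0.587). Those ending in A had 59.3 and 40.1 RPM, a ratio of 1.48 (1.35 to 1.62) in the other direction. For miR-20-5p the G-ending form printed above, with 686 RPM in female and 329 RPM in male liver, had a ratio of 2.08 (2.02 to 2.15). The A-ending form of the same length had 72.1 and 52.7 RPM, a ratio of 1.37 (1.26 to 1.49). No genome was used, so bases encoded in the hairpin were not told apart from bases added later.

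**Figure D4:**
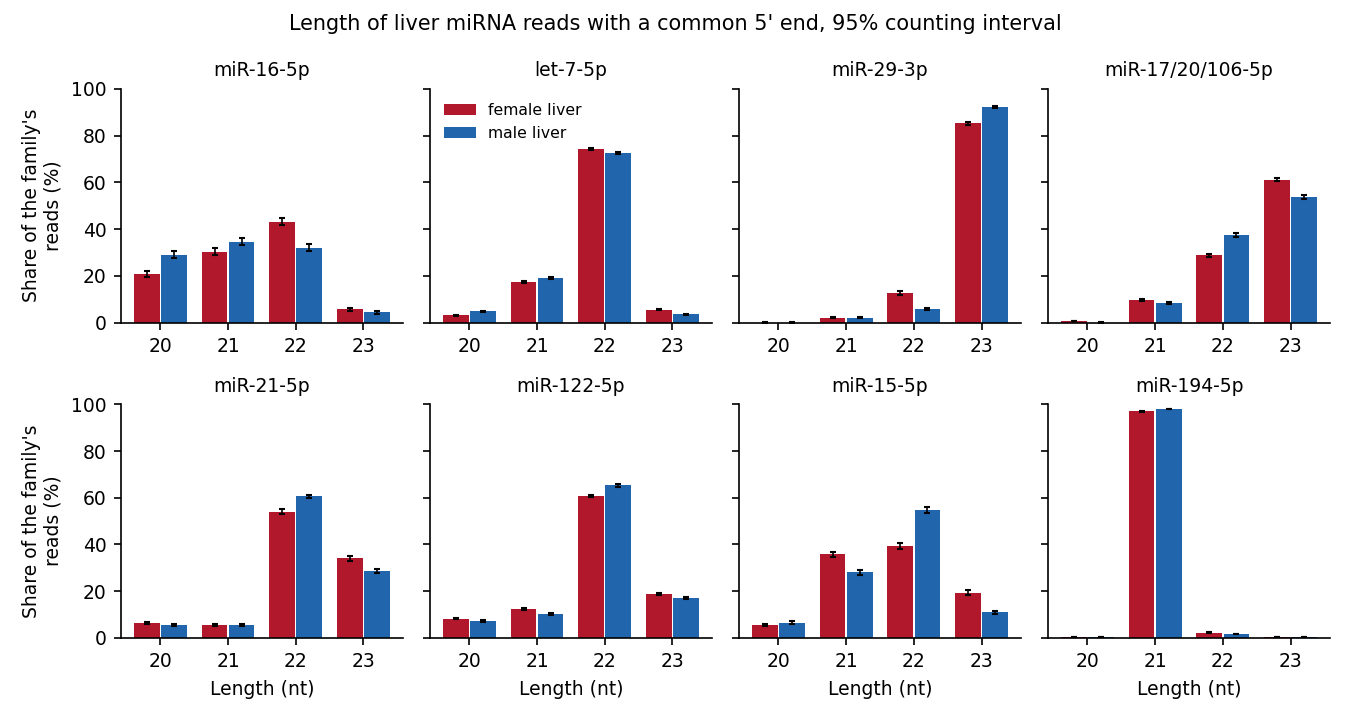
Share of a family's liver reads (vertical, percent) by read length in nt (horizontal), for reads with the family's main 5′ start, in female (red) and male (blue) liver, 1 pooled library each; bars start at 0 and carry exact 95% counting intervals. The shares of miR-16-5p and miR-15-5p differ most between the sexes and those of miR-194-5p hardly at all.

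At the 5′ end, reads that began 1 base inside the usual start, and so carried a shifted seed, took a larger share in male liver in 5 of the 6 families where both livers listed them. For miR-122-5p they made up 1.02% of the family in female (0.913 to 1.13) and 3.42% in male liver (3.24 to 3.61). For miR-194-5p they made up 1.07% (1.01 to 1.12) and 1.97% (1.89 to 2.04), and for miR-199-3p 15.999% (14.8 to 17.2) and 23.97% (23.002 to 24.96). The exception was miR-130-3p, with 55.9% in female (53.3 to 58.5) and 40.2% in male liver (38.7 to 41.8). Of the 5 families, miR-126-3p had overlapping intervals, at 6.87% (5.87 to 7.97) and 7.26% (6.14 to 8.52). The male shares of miR-122-5p and miR-199-3p include sequences of 6.70 to 10.5 RPM unlisted in the female, which the intervals do not cover. Their inner-start sequence listed in both livers had 18.5 and 51.7 RPM for miR-122-5p, and 30.2 and 70.1 RPM for miR-199-3p. The miR-101-3p reads with the extra 5′ base made up 33.1% in female (32.1 to 34.3) and 39.2% in male liver (37.7 to 40.8). In let-7-5p, miR-21-5p, miR-24-3p and miR-29-3p starts 1 base inside were listed in the male alone, the highest being miR-29-3p with 26.9 RPM. miR-24-3p reads that began 2 bases inside were listed in both livers and went the other way. They made up 5.90% in female (5.08 to 6.81) and 2.93% in male liver (2.58 to 3.31).

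Per exact sequence, 93 of the 381 reached 50 RPM in the higher library. Of these, 9 were at least 2-fold higher in female (9.68%) and 20 in male liver (21.5%), with a median ratio of 0.964. Of these, 6 of the 9 and 16 of the 20 were miRNAs, beside 72 of all 93. The rest were pieces of abundant structural RNAs, which often come from cleavage or breakdown of the parent molecule, and unassigned sequences.

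Pieces of tRNA gave the 2 highest female-to-male ratios among the 93 sequences of at least 50 RPM. The 5′ end of tRNA-Asp, tcctcgttagtatagtggta, had 63.7 RPM in female and 21.7 RPM in male liver, a ratio of 2.94 (2.62 to 3.29). Among pieces of tRNA-Glu with at least 50 RPM in the higher liver, 3 that overlap in the 8 bases written in capitals differed in ratio.
tRNA-Glu, 20 nt from the 5′ end: tccctggtggtcTAGTGGTT
tRNA-Glu, 23 nt from the 5′ end: tccctggtggtcTAGTGGTTagg
tRNA-Glu, internal piece of 21 nt: TAGTGGTTaggattcggcgct
The 20-nt piece had 101 RPM in female and 197 RPM in male liver, a ratio of 0.512 (0.484 to 0.541). The 23-nt piece with the same start had 96.2 and 59.8 RPM, a ratio of 1.61 (1.49 to 1.74), and the internal piece 121 and 46.2 RPM, a ratio of 2.61 (2.41 to 2.82). Under 50 RPM, the 21-nt form with the start of the 20-nt piece had 19.7 and 22.7 RPM, a ratio of 0.871. The 22-nt form had 16.6 and 21.4 RPM, a ratio of 0.773. A piece of tRNA-Gly, gcgttggtggtatagtggtt, had 71.9 and 43.7 RPM, a ratio of 1.64 (1.51 to 1.80). The next sequences toward the male were nearly level: a piece of tRNA-Val, gtttccgtagtgtagtggtt, had 50.7 and 56.5 RPM, and a piece of tRNA-Lys, gcccggctagctcagtcggtag, 63.4 and 63.9 RPM. The names of these tRNAs rest on likeness to vertebrate tRNAs. All pieces matched to the tRNA of the key had 1086 RPM in female and 940 RPM in male liver.

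Pieces matched to the rRNA of the key summed to 1856 RPM in female and 1421 RPM in male liver. Most of this was 1 sequence, the 5′ end of 18S rRNA, tacctggttgatcctgccagt, with 1322 RPM in female and 885 RPM in male liver, a ratio of 1.49 (1.46 to 1.52). A piece of 28S rRNA of 22 nt, ttcgacctcagatcagacgaga, had 137 and 88.1 RPM, a ratio of 1.55 (1.46 to 1.65), and its 20-nt form, ttcgacctcagatcagacga, had 55.5 and 57.6 RPM. A piece of 5S rRNA, gaataccaggtgctgtaagtt, went the other way with 17.2 RPM in female and 72.4 RPM in male liver, a ratio of 0.238 (0.210 to 0.268).

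Of the 50 unassigned sequences, those with the widest ratios at 50 RPM or more are shown here because no family or structural RNA of the key accounts for them. The key holds only 24 pieces of tRNA, rRNA and snRNA, so an unassigned sequence can still come from such an RNA.
Higher in male liver, 19.2 against 77.3 RPM: atctcaggttcgtcagcccatg
Higher in male liver, 26.2 against 69.9 RPM: ctccccgccgccggaggcgcgg
Higher in male liver, 87.7 against 209 RPM: atgtcaaagtgaagaaattc
Higher in female liver, 177 against 78.6 RPM: ctctcgtgatgtcttgcactg
Higher in female liver, 148 against 76.1 RPM: tgtcggTGATGAaaatggtg
The first of each pair of values is female. The 3 male-leaning sequences had ratios of 0.248 (0.220 to 0.278), 0.375 (0.337 to 0.416) and 0.420 (0.396 to 0.445), and the 2 female-leaning ones 2.25 (2.11 to 2.39) and 1.95 (1.83 to 2.08). The capitals in the last mark the letters TGATGA, which are those of the C box of small nucleolar RNAs and were searched for after the values had been seen. They stood in 13 of the 50 unassigned sequences (26%) and in 0 of the 272 miRNA sequences, and their reverse complement in none of either. Of these 13, which include overlapping length forms, 11 had a ratio above 1, 5 of them at least 2-fold, and together they had 467 RPM in female and 259 RPM in male liver. Without an RPM minimum, 22 of all 381 sequences were at least 2-fold higher in female liver. Among the 93 with at least 50 RPM, 43 had a ratio above 1. A match to the letters TGATGA does not show that a sequence comes from a small nucleolar RNA.

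Unassigned sequences listed in 1 liver alone differed in base composition. The 14 listed in the male alone had a median of 79.5% G and C, with 9 of them over 70%, while the 7 listed in the female alone had a median of 39.1% and none over 70%. Among the 72 miRNA sequences of at least 50 RPM, the log2 ratio and the share of G and C correlated with Pearson's r of -0.423, a description across sequences of which many share a family. The 16 that were at least 2-fold higher in male liver had a median of 46.5% G and C, and the 11 at least 1.5-fold higher in female liver one of 39.1%. The part of base composition in the sex ratios was not tested.

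In brain the sexes lay closer. Over the 32 of the 39 families that also had at least 50 RPM in a brain library, the SD of the log2 ratios across families was 0.971 in liver and 0.397 in brain. At least 2-fold differences numbered 13 in liver and 2 in brain. Brain listed far more miRNA, 222159 RPM in 835 sequences in the female and 202828 RPM in 809 in the male. Liver listed 18358 RPM in 220 sequences and 19928 RPM in 258, so its family sums lie nearer the listing minimum. The part of this in the wider spread in liver was not tested. Of the 13 families higher in male liver, 9 had a female-to-male ratio above 1 in brain and 4 below it, with a range of 0.691 to 1.504. The median brain ratio over the 32 families was 1.17, and read against it the split turned round, with 5 of the 13 above and 8 below. miR-221-3p had 3981 RPM in female and 2647 RPM in male brain. miR-146-5p, at 84.1 and 118 RPM, was higher in the male in both organs. So was miR-29-3p, at 8447 and 12220 RPM and the ratio of 0.691, but in brain this rests on 1 sequence. The second miR-29-3p variant described above had 5976 RPM in male brain and was unlisted in female brain. Its form 1 base shorter at the 5′ end had 348 RPM in female and 225 RPM in male brain. The leading sequence of the other variant had 6306 RPM in female and 4941 RPM in male brain. Among the female-leaning families miR-19-3p, at 496 and 183 RPM, was higher in the female in both organs. miR-17-5p/miR-20-5p/miR-106-5p, at 1924 and 1851 RPM, was nearly level in brain. Across these families the log2 ratios of the organs correlated with Pearson's r of 0.368, again a description.

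**Figure D5:**
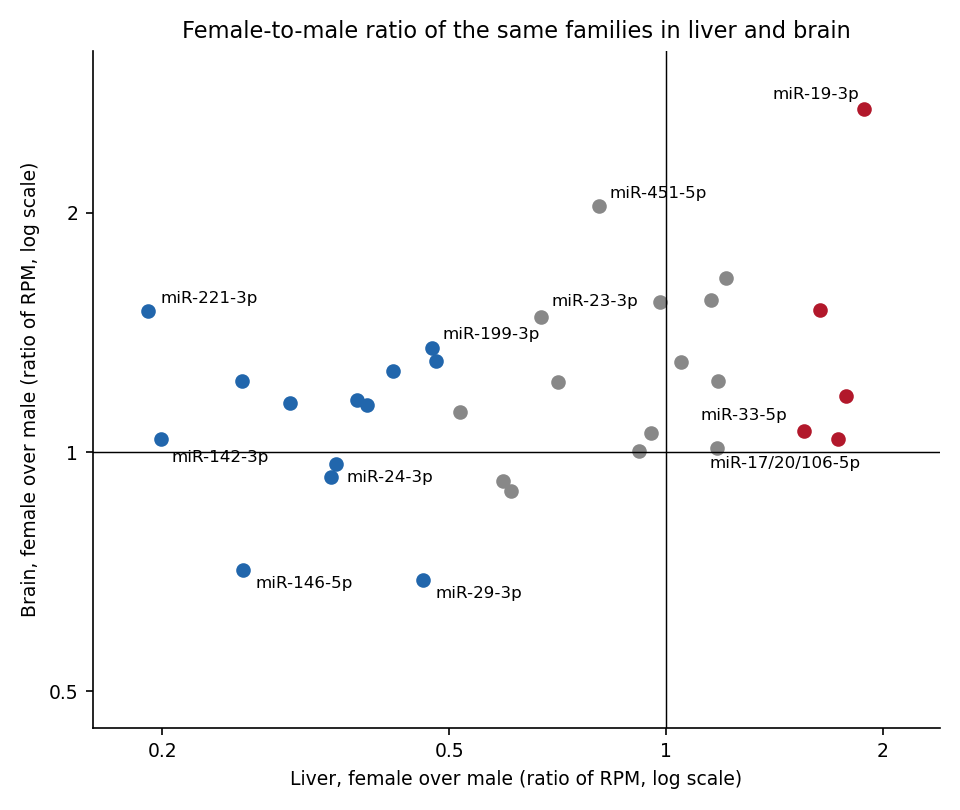
Female-to-male ratio of RPM in liver (horizontal, log scale) and in brain (vertical, log scale) for the 32 families with at least 50 RPM in both organs, 1 pooled library per sex and organ. Blue families are at least 2-fold higher in male liver, red ones at least 1.5-fold higher in female liver; 9 of the 13 blue families lie above the line of equal brain values, and 5 above the brain median of 1.17.

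In the gonads several of the male-leaning families were higher in ovary than in testis. Ovary listed more miRNA in all, 23546 RPM beside 15168 RPM in testis, and the share of all families higher in ovary was not counted. miR-146-5p had 399 RPM in ovary and 69.4 RPM in testis, and miR-24-3p had 689 and 181 RPM. miR-221-3p had 35.3 RPM in ovary and 16.9 RPM in testis, and miR-142-3p had 61.2 and 45.4 RPM. miR-29-3p went with the male in the gonads too, at 294 and 656 RPM. Of the female-leaning families, miR-101-3p was unlisted in both gonads, and miR-17-5p/miR-20-5p/miR-106-5p had 842 RPM in ovary and 244 RPM in testis. Ovary and testis are different organs, so these values are set beside those of liver without a comparison.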

How the data were processed

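Total RNA of pooled tissue, 1 µg per library, was DNase-treated, selected under 30 nt on a gel, ligated to adapters and amplified by 12 PCR cycles, per the labels' protocols. CASAVA 1.7.0 is listed, per the submitters' processing notes; the sources used here do not name an aligner, adapter trimming, filters or an annotation. Each deposited file lists exact sequences with a length in nt and an expression value, which the authors give without a unit. The values were taken as deposited RPM because every one was a whole multiple, within 0.02 reads, of 1 read in a fixed library total; those totals gave depth and intervals only.

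Sequences were named by likeness to a hand-written key of 130 conserved vertebrate miRNA starts from 95 family arms and of 24 tRNA, rRNA and snRNA pieces. At most 2 mismatches, a start at most 3 bases before or 2 after the reference and 16 overlapping bases were asked for. The key assigned 0 of 10000 random sequences, and 647 of 650 references with 1 substitution (99.5%) to their own family. No sequence printed is taken from the key. Adapter sequences, with at most 3 edits, were left out. RPM were summed per family arm, with unlisted sequences as 0.

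Families and sequences with at least 50 RPM in the higher liver were compared by the ratio of RPM, and values under the higher listing minimum were raised to it; a difference was counted from 2-fold. Fold bounds divide a sequence's RPM by the other file's minimum. Ratio intervals are exact conditional binomial (Clopper-Pearson, 95%) on implied reads. With 1 library per sex no test was possible and none was run. The families and sequences named are up to 15 past 2-fold in each direction (13 and 0), the 10 most abundant of either liver, the listed members of the cell type lists, the 8 widest ratios in each direction outside families, and others said to be picked after their values were seen; for lengths, the 6 largest differences. Members and lists were chosen with earlier results of these data known. Python 3.11.15, pandas 2.3.3, NumPy 2.4.6, SciPy 1.17.1, edlib 1.3.9.post1 and matplotlib 3.10.9 were used, and the intervals were tested on simulated data.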

Additional observations from a re-analysis of the deposited data

Results flagged for a closer look

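Sex ratios went in opposite directions in liver and brain in 2 of the 39 families, counting only ratios 1.5-fold or more from 1 in both organs. miR-221-3p had a female-to-male ratio of 0.191 (0.170 to 0.214) in liver and 1.504 (1.49 to 1.52) in brain, where it was abundant. miR-148-5p had a ratio of 1.94 in liver and 0.501 (0.422 to 0.592) in brain, where it had 9.67 RPM in the female and 19.3 RPM in the male library, close to the listing minima. With 1 library per sex and organ, the difference between the organs was not tested.

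Adapter sequences, which no comparison uses, had 2677 RPM over 65 sequences in female liver and 1460 RPM over 49 in male liver, a ratio of 1.83. Of the 38 adapter sequences listed in both livers, 32 were higher in the female. They were 10.6% of the listed value in female and 5.86% in male liver, and 0.121% in female and 0.102% in male brain. Their part in the sex ratios was not tested.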

How the results depend on the processing

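Families higher in male liver outnumbered those higher in female liver under each alternative, but the size of the female side depended on scaling. The main counts were 0 families at least 2-fold higher in female and 13 in male liver. Scaling to miRNA reads (a log2 shift of 0.12) gave 2 and 10, and median-of-ratios scaling (0.37) gave 6 and 9. The top sequence of each family alone gave 2 and 10. A 1.5-fold threshold gave 6 and 17, a 4-fold threshold 0 and 2, and no RPM minimum 0 and 24. Of these 24, miR-222-3p and miR-499-5p rest on sums of sequences unlisted in the female and are not shown to be 2-fold. Nor are miR-210-3p, miR-128-3p and miR-338-3p, whose male sums include sequences unlisted in the female. miR-22-3p, miR-199-3p and miR-200-3p, also among the 13, fell short of 2-fold over sequences listed in both livers. The median log2 ratio of -0.37 became -0.25 with miRNA scaling, 0 with median-of-ratios scaling, which sets it so, and -0.26 over sequences listed in both livers. Against 9 female-leaning and 20 male-leaning sequences, median-of-ratios scaling gave 18 and 13, which turned the order round, no minimum 22 and 45, 1.5-fold 18 and 30, and 4-fold 0 and 4. The median length difference stayed between -0.003 and 0.029 nt. Of 21 named families past 2-fold, 17 kept this with median-of-ratios scaling, 18 with miRNA scaling and 15 with the top sequence alone; direction changed in 8, 3 and 4 of 56. miR-29-3p, with median-of-ratios scaling, fell below 2-fold at 0.594. No library could be left out with 1 per sex. No paired analysis was possible because each group is 1 library and the labels carry no replicate numbers. The listing minima of 114 and 112 reads limit what can be said of any sequence listed in 1 liver alone.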
